A study of Mus musculus with 18 samples.

Results

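The 9 genes described here (Ifng, Tbx21, Stat4, Il12rb1, Il12rb2, Il18r1, Il18rap, Hlx and Cxcr3) carry the programme by which a CD4 T cell becomes a Th1 cell and makes interferon-gamma. Their accessible regions were found in a table of 65983 regions from ATAC-seq, an assay that marks open chromatin by where a transposase can insert adapters. A region belonged to a gene when the authors' annotation named the gene as overlapping it or as lying to its left or right. By this rule 61 distinct regions named a member, and the table named 26755 genes in all. The samples were mouse CD4 T cells, activated as naive cells with beads against CD3 and CD28 in Th1 medium with IL-2, IL-12 and an antibody against IL-4. Cells with an Id3 knockout (Id3-KO) and wild-type cells (WT) were each taken at 24 h under the label Th1 and at 72 h under the labels Tcmp and Teff, which the labels do not spell out. Each of the 6 groups had 3 samples, 18 in all. The labels do not say how Id3 was deleted, how old the mice were, or whether replicate samples were separate animals, cultures or pools.

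In Th1 differentiation, IL-12 binds a receptor made of the Il12rb1 and Il12rb2 chains and activates the transcription factor STAT4. STAT4 and the T-box factor T-bet, encoded by Tbx21, switch on Ifng, and T-bet also drives Il12rb2 and Cxcr3. Hlx is a homeobox factor that works with T-bet, and IL-18 acts through Il18r1 and Il18rap to raise interferon-gamma output together with IL-12. Id3 holds back E proteins, which bind the DNA motif known as the E-box.

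The table holds no value for a single sample, and its 6 contrasts list the same regions with the same annotation. In 65983 of 65983 regions the window chosen to represent the region was its first window, in each contrast, and the smallest p-value stood in row 1. Down the rows, which run by chromosome and position, the deposited p-values rose (Spearman's rho of 0.82 to 0.98 with the row number over the 6 contrasts, as a description) and the sizes of the log2 fold changes shrank (rho of -0.97 to -0.87). The listed statistics therefore follow row order and do not belong to the regions beside them. The members lie between row 589 (Il18r1) and row 65348 (Cxcr3). For this reason no fold change or p-value is given for any gene below, and the data do not say whether a region differed between Id3-KO and WT cells or in which sample it was open. What follows describes where the regions lie, with no replicate error. Library depth is unknown from this table. A gene with no region, or a stretch with none, means only that the table lists none there. Of 9 T cell markers, 8 had a promoter region, all but Trac. The counts were 2 of 5 for myeloid cells (Itgam and Spi1), 1 of 2 for NK cells (Klrb1c) and 1 of 2 for CD8 T cells (Cd8b1). Beside these, 75.9% of all genes named had a promoter region, as did 61.6% of 21900 protein-coding genes by symbol. The part of other cell types in the regions described here was not tested. Trac, Lyz2, Csf1r, Cd14 and Ncr1 were named by no region. Itgam had 6 regions and Spi1 had 5, beside a median of 5 over the 9 T cell markers.

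The promoters of Ifng, Tbx21, Il12rb2, Cxcr3 and Hlx are shown to let their make-up be compared, from the cytokine, the regulators, the receptor subunit and the chemokine receptor of the programme. They are RefSeq sequences of the build GRCm38.p6, a different build from the GRCm39 of the regions, and run on the gene's strand from 250 bases before the start site to 50 after it. Capitals mark every E-box (CANNTG) and every T-box core (TCACAC or its complement), the latter being the core bound by T-bet.
Ifng, chr10:118440796-118441095, + strand: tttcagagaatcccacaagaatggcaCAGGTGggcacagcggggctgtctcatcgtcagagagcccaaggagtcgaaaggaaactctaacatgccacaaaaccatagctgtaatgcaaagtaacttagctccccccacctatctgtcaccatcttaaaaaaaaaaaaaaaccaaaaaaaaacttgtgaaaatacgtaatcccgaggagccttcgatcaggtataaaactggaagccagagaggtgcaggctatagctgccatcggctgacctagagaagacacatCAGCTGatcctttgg
Tbx21, chr11:97115282-97115581, - strand: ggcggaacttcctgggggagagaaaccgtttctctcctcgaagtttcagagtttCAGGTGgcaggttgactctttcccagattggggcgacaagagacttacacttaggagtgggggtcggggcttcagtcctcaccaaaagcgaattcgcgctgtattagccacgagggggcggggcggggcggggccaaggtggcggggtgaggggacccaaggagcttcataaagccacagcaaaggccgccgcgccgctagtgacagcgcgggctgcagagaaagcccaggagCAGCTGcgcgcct
Il12rb2, chr6:67376139-67376438, - strand: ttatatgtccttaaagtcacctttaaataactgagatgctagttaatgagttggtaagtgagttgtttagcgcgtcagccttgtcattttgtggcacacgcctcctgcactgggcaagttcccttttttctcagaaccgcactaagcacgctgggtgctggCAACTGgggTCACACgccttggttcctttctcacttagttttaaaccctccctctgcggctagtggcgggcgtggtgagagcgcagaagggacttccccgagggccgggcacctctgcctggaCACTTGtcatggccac
Cxcr3, chrX:101734098-101734397, - strand: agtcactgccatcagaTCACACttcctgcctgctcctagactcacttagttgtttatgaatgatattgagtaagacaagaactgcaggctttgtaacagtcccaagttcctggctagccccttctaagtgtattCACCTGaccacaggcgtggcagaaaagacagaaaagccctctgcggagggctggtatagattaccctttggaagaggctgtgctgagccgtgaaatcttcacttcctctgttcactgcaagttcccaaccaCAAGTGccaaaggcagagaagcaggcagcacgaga
Hlx, chr1:184732444-184732743, - strand: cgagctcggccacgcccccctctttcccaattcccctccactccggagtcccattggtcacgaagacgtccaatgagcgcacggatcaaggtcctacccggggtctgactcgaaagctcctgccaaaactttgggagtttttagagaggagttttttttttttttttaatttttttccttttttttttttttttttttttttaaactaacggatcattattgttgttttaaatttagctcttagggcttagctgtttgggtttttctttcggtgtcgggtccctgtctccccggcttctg

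The Ifng and Tbx21 promoters each held an E-box of the form CAGCTG shortly after the start site, at base 286 of the Ifng sequence and base 288 of the Tbx21 sequence. Both also held the form CAGGTG upstream, at base 27 and base 55. Il12rb2 and Cxcr3 were the members with a T-box core, at base 171 and base 17. Hlx had no match to any of the 6 motifs searched.

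Promoter sequences were at hand for 8 of the 9 genes and 11 start sites, of which Il18r1 gave 3, partly overlapping, and Stat4 gave 2; none was used for Il12rb1. Motifs were searched on both strands. An E-box was found in 10 of the 11 member promoters (90.9%) and in 72.3% of all 32851 promoters of the same length. The subset CAGCTG was in 2 of 11 (18.2%) and in 16.3% of all promoters. The T-box core was in 2 of 11 and in 14.5% of all. A STAT motif, TTCNNNGAA, was in 3 of 11 (Ifng, Il12rb2 and Il18r1) against 8.3% of all, and a Runx core, TGTGGT, in 3 of 11 (Cxcr3, Il18rap and Il18r1) against 16.8%. The AP-1 motif TGANTCA was in 0 of 11 and in 7.81% of all. With so few promoters, these shares are a description and were not tested.

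The promoters also differed in CpG content, which is often high at promoters that are broadly active across tissues. Tbx21 had the most, with 21 CpG in 300 bases and 62% G and C, more CpG than 75.2% of all promoters. Hlx had 14 and Il12rb2 had 12. Ifng had 7, equal to the median of all promoters (quartiles 3 and 20). Il18rap and Cxcr3 had 4 each, and the 2 promoters of Stat4 had 2 and 4.

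Most members were named by more regions than a typical gene. Stat4 had 17 regions, Il12rb2 had 12, Il18r1 had 7, Tbx21 and Il18rap had 6 each, Il12rb1 had 5, Ifng had 4, Cxcr3 had 3 and Hlx had 1. The median of the members was 6, beside a median of 2 (quartiles 1 and 3) over all genes the table names, and 8 of 9 members lay above it, as did 37.5% of all genes. This was not particular to the members. Above the same median lay 8 of 9 T cell markers, 7 of 9 Th2 genes, 7 of 9 Th17 genes and 19 of 28 other Th1 signalling genes. The counts were 2 of 5 for myeloid markers and 0 of 2 each for CD8 T and NK markers. With the overlapping regions alone, 6 of the 9 members lay above the median, and no share of all genes is given for this setting. Among 21900 protein-coding genes by symbol, of which 70.9% had a region, the median was also 2, counting 0 for genes without a region. Over the protein-coding genes with a region the median was 3, and Cxcr3, with 3, did not lie above it. These counts were not set against gene length. The genes with the most regions were also those whose regions spread over the longest stretch, 102100 bp at Stat4 and 86450 bp at Il12rb2. This stretch runs from the first to the last of the counted regions. It is therefore partly tied to their number and does not stand in for gene length.

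**Figure D1:**
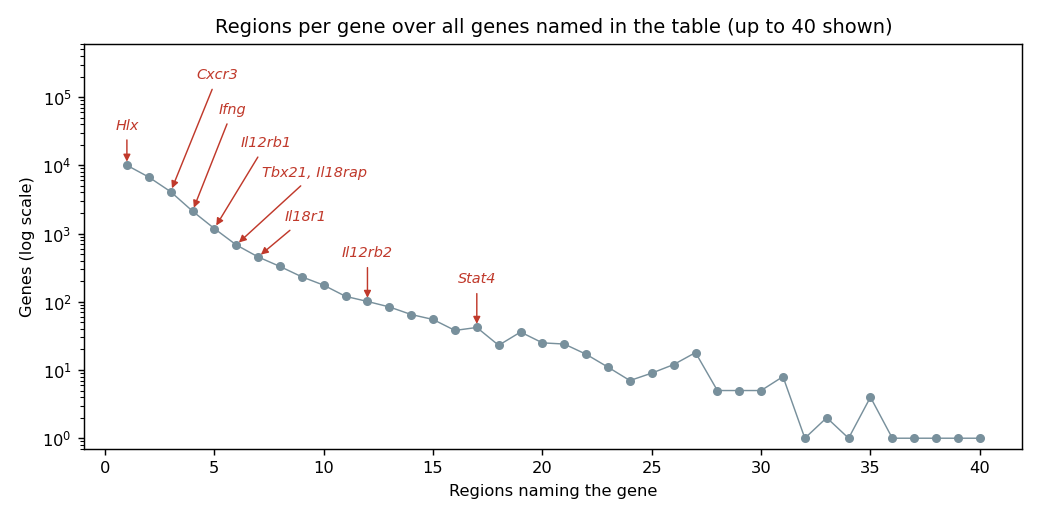
Number of genes (vertical axis, log scale) with each number of regions (horizontal axis, up to 40) over all genes named in the table, with the 9 members marked by arrows. Stat4 (17 regions) and Il12rb2 (12) lie far along the tail, and Hlx (1) lies at its start.

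Introns held more of the member regions than any other class, through Stat4 and Il12rb2. The letters P, E and I of the annotation were read as promoter, exon and intron, and a region with several letters was counted under the first of these. Of the 61 regions, 30 (49.2%) were in introns, 16 (26.2%) at promoters, 6 (9.84%) in exons, 7 (11.5%) downstream and 2 (3.28%) upstream. Over all 76685 pairs of a gene and a region the shares were 34.2% intron, 37% promoter, 7.16% exon, 15.6% downstream and 6.1% upstream. Stat4 and Il12rb2 held 13 and 7 of the 30 intron regions. The other 7 members had 10 intron regions of 32 (31.2%), below the share over all pairs, and Il12rb1, Hlx and Cxcr3 had none.

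**Figure D2:**
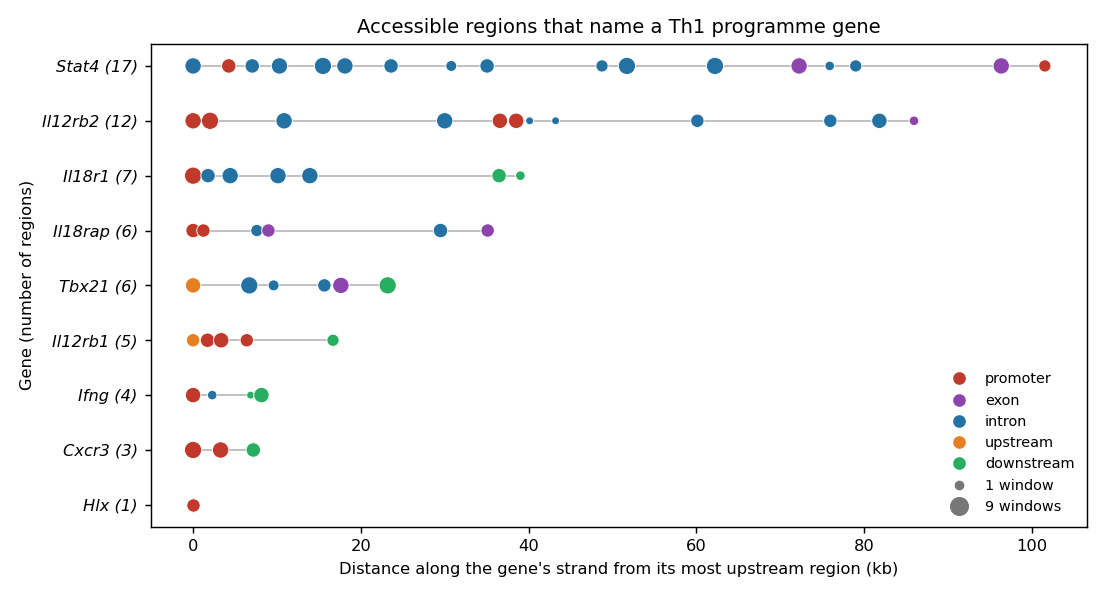
Midpoints of the 61 regions along each gene's strand, in kb from the gene's most upstream region; colour gives the class and point size the number of windows. Stat4 carries 13 intron regions, the last at 79.0 kb, while Tbx21 has no promoter region and Hlx has a single region.

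The receptor chains for IL-12 differed in layout. At Il12rb1, 4 of the 5 regions lay at the 5' end: an upstream region 3143 bp from the nearest exon, a promoter region (chr8:71259151-71259700, GRCm39), a region over promoter and exon (chr8:71260751-71261350) and a further promoter and exon region (chr8:71263851-71264350). The fifth, chr8:71274151-71274600, lay 83 bp past the 3' end. The first 3 of the 5 also named Mast3, a kinase gene on the opposite strand, and the first promoter region was a promoter region of both genes.

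Il12rb2, the inducible chain that confers IL-12 responsiveness, had 12 regions. Its 4 promoter-class regions formed 2 pairs, chr6:67354851-67355500 with chr6:67352801-67353500 at the 5' end, and chr6:67318301-67318900 with chr6:67316351-67316950 further into the gene. Of the other 8, 7 were intron regions and 1 was an exon region at the 3' end, where the neighbour Serbp1 on the other strand was named too. Here lay 2 of the 3 single-window regions of all members, each 300 bp wide, side by side at chr6:67311801-67312100 and chr6:67314901-67315200.

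Stat4 had more regions than 99% of genes, and 231 genes had more. Its 17 regions comprised 13 in introns, 2 in exons and 2 of promoter class. One promoter region (chr1:52047501-52048050) followed an intron region (chr1:52043201-52043850), so it lay within the gene. No promoter-class region of Stat4 was listed further upstream. The other promoter region (chr1:52144851-52145300) was the last, at the far end of the stretch. The last 5 regions also named ENSMUSG00000101628, and the last of all ENSMUSG00000109599. For 7 of the 13 intron regions no Stat4 exon was listed within 5000 bp, the largest distance the table lists. Il12rb2 had 1 such region and the other members none. Over all genes 43.7% of intron regions were of this kind, against 8 of 30 (26.7%) in the members. Gaps between neighbouring Stat4 regions ran from 1950 to 16800 bp with a median of 4150.

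The IL-18 receptor genes Il18r1 and Il18rap stand next to each other on chromosome 1 in the same orientation. Il18r1, the ligand-binding chain, had 1 promoter and exon region (chr1:40504501-40505200), which also overlapped an exon of Il1rl1, the gene of the IL-33 receptor. It had 4 intron regions and 2 regions downstream, 1037 and 3687 bp from its nearest exon. Between the last intron region and the first downstream one stood the longest gap of all members, 21950 bp. Il18rap, the accessory chain, began 10150 bp past the last Il18r1 region with a pair of promoter and exon regions (chr1:40554201-40554750 and chr1:40555451-40555950). It had 2 further regions in introns and 2 in exons. No other gene was named by any of its 6 regions, and it was the single member of which this was true.

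Tbx21, which encodes T-bet, was the member with no promoter-class region. Of its 6 regions, 3 were intronic, 1 was exonic, 1 was downstream and 1 upstream. The upstream region (chr11:97010051-97010650) lay 3894 bp from the nearest Tbx21 exon. On the other side, an intron region (chr11:97003301-97004000) lay 1476 bp from the nearest exon, and the 6050 bp between the 2 regions, which hold the first exon, carried no other region. Of 2607 genes with 6 or more regions, 155 (5.95%) had no promoter-class region. The upstream region was a promoter region of ENSMUSG00000084368, an ID with no symbol in the table, which the nearest intron region named too. The downstream and exon regions also named ENSMUSG00000084068. Tbx21 was the member promoter with the most CpG, in the sequence printed above. How far from a gene the promoter class reaches is not stated. At Cxcr3 a region 2776 bp from the nearest exon had this class, while at Il12rb1 one at 3143 bp did not.

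Hlx had 1 region, chr1:184466501-184467000, of promoter class and 1685 bp upstream of the nearest Hlx exon. The same region was a promoter region of ENSMUSG00000102158 on the opposite strand. No region overlapped an exon or intron of Hlx, and 62.6% of genes had more regions.

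Cxcr3, the chemokine receptor that takes Th1 cells to inflamed tissue, had a promoter and exon region (chrX:100777401-100778050), a promoter region 2776 bp from the nearest exon (chrX:100780651-100781350) and a downstream region at 1041 bp, which also named ENSMUSG00000118478. Their widths were 650, 700 and 550 bp, all at or above the median of 550 bp over all regions.

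Ifng itself had 4 regions, but it stood among many that named no gene. A promoter and exon region, chr10:118276501-118277100, was 600 bp wide with 7 windows. An intron region of 350 bp followed, then a single-window region 1704 bp downstream and a region of 600 bp 2854 bp downstream (chr10:118284651-118285250). All 4 also named ENSMUSG00000111913 on the same strand.

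On either side of these, the next 9 regions upstream and the next 10 downstream named no gene. The upstream ones lay 4.7 to 69.7 kb from the promoter region, over chr10:118206251-118271800. The nearest was 4.7 kb away, a group of 5 stood 21 to 35.6 kb away, and 3 lay 53.9 to 69.7 kb away. The downstream ones lay 2.35 to 45.9 kb from the last Ifng region, over chr10:118287601-118331700, and ended where regions of Ifngas1, a long noncoding RNA gene beside Ifng, began, 56700 bp from the last Ifng region. As background, Ifng is known to be controlled by conserved distal elements on both sides of the gene, several of them bound by T-bet. Which of these regions match such elements was not examined. Their widths ran from 450 to 750 bp upstream and from 400 to 700 bp downstream, and the widest, chr10:118254751-118255500, was wider than any region that named a member.

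Within 100 kb of its outermost regions Ifng had 19 regions that named no gene. Over 26754 genes the median of this count was 1 (quartiles 0 and 3), and 21 genes (0.0785%) had more than Ifng. Il18r1 had 8, Tbx21 had 6, Hlx had 4, Il12rb2 and Cxcr3 had 2 each, Stat4 and Il18rap had 1 each and Il12rb1 had 0. The 8 at Il18r1 all lay upstream, beyond regions that named other genes, with Il1rl1 the nearest. Il1rl1 itself also had 8. For Tbx21, 3 of the 6 stood in a row upstream, 4.8 to 9.05 kb from its upstream region, before regions of Tbkbp1 began. The rest lay downstream, past regions that named other genes. At Il12rb1 all 30 other regions within 100 kb named a gene, and 60.4% of genes had more regions naming no gene than its 0. At Ifng 29 other regions stood within this distance. Both totals were high beside a median of 11 over all genes. Fewer other regions stood near 98.9% of genes than near Il12rb1, and near 98.5% than near Ifng.

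**Figure D3:**
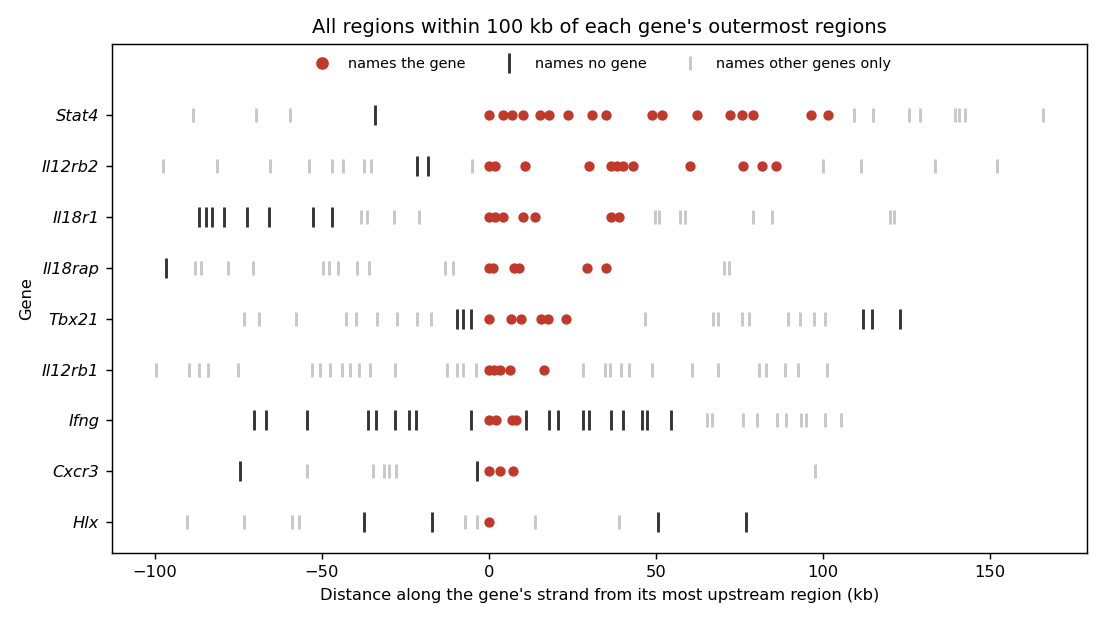
All regions within 100 kb of each member's outermost regions, placed along the gene's strand in kb from its most upstream region. Red points name the gene, black ticks name no gene and grey ticks name other genes only; Ifng is flanked by 19 black ticks and Il12rb1 by none.

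In width the member regions were like the rest of the table. Their median was 550 bp with quartiles 500 and 650, the same 3 values as over all regions, and the range was 300 to 700 bp against 300 to 1100. The median number of windows was 6 in both. Of the member regions, 62.3% had at least 6 windows, against 68.1% of all regions, and 3 (4.92%) had a single window, against 3.81%. In 97.8% of all regions the number of windows follows from the width, so these are not separate measures. Among members, Il18rap had narrow regions, none above 550 bp, while 6 of the 7 Il18r1 regions were 550 bp or wider. Promoter-class member regions had a median width of 600 bp and intron ones of 550 bp, the same as these classes over all genes.

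**Figure D4:**
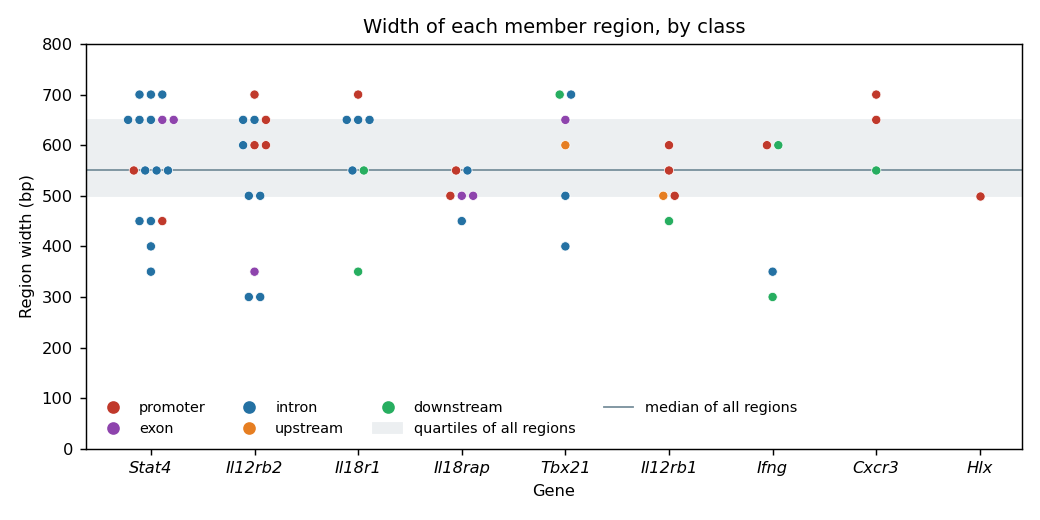
Width in bp of each of the 61 regions by gene, with colour for class; the line and band give the median and quartiles of all 65983 regions. Most points lie in or next to the band of 500 to 650 bp, and the lowest are the 300 bp regions of Il12rb2 and Ifng.

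Of 28 other genes of Th1 signalling, 26 had a region and 24 a promoter-class region, with a median of 3 regions. Runx1, a Runx-family factor, had the most with 27, and Jak1, a receptor-bound kinase, had 22. No region named Il12a, a subunit of IL-12 itself, or Twist1. Genes of the alternative T helper fates were named too. All 9 Th2 genes had a promoter-class region and their median was 4, with 8 at Ccr4 and 6 at Gata3, the Th2 master factor. Of 9 Th17 genes, 7 had a region and 6 a promoter-class region, with a median of 6 over all 9 and none at Il17a and Il22. Of protein-coding genes by symbol, 70.9% had a region and 61.6% a promoter-class region, which 75.9% of all genes named also had. For regions naming no gene within 100 kb, the medians were 2 in the members, 5 in the other Th1 signalling genes, 3 in the Th2 genes and 3 in the Th17 genes, over the genes with a region. Within the signalling list Runx3, a partner of T-bet at Ifng, had 19, as many as Ifng.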

How the data were processed

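ATAC-seq libraries of 18 samples in 6 groups were summarised by the authors in a table of 6 contrasts with no value per sample. The build GRCm39 and the tools Trim Galore, BWA, Picard and edgeR come from the submitters' processing notes, which state no role or version. How windows were filtered and merged is not stated. Per the file headers, each region has a deposited log2 fold change, a p-value and an adjusted p-value, and numbers of windows. The deposited log2 fold changes and p-values were not used, because they follow row order. Library depth is unknown.

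Regions, classes and distances were read from the authors' annotation with Python 3.11.15 and pandas 2.3.3; listed distances are to the nearest exon and run up to 5000 bp. Reading and motif search were tested on simulated data. Surroundings were measured from the first to the last region naming a gene, plus 100 kb. Gene symbols and promoters came from RefSeq tables of GRCm38.p6, with no coordinate moved between builds. The 9 members and the gene lists were chosen with earlier results of these data known. All 9 members and genes sharing their regions are named; of the other Th1 signalling genes, those with the most and fewest regions are named, and Jak1, Gata3, Ccr4 and Runx3 were added after their values were seen. Markers of T, CD8 T, myeloid and NK cells were counted; a further marker list is not reported here. No test was made. Counts were recomputed with overlaps alone, regions of at least 2 windows, flanks within 1000 bp, other backgrounds and 50 kb.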

Additional observations from a re-analysis of the deposited data

How the results depend on the processing

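Of 19 recomputed values, 15 stayed within 1.5 times the reported one. The 61 member regions became 52 with overlaps alone, 58 with regions of 2 or more windows and 53 with flanking genes within 1000 bp. Counting a region under every class it carries raised the exon regions from 6 to 17, because most promoter regions also touch an exon. At least the median number of windows was reached by 38 member regions, and by 9 when the 16 promoter-class ones alone were set against the median of that class. Within 50 kb in place of 100 kb, the counts of regions naming no gene, summed over the members, fell from 43 to 26 (42 distinct regions within 100 kb, since Il18r1 and Il18rap share 1), and from 19 to 16 at Ifng. Without Stat4 and Il12rb2 the intron share fell from 49.2% to 31.2%. This setting, the span of a gene's regions, the promoter sequences and the use of 1 promoter per gene were chosen after seeing the data. Counts per gene length, motifs in the regions themselves, the central 300 bp and backgrounds of the same width were not run, since the reference at hand is of another build. No paired analysis was possible because no sample has a value of its own; leaving out a replicate was not possible either. Depth limits could not be judged.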

Other observations

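At least 19 regions naming no gene stood within 100 kb of 32 names, Ifng among them. Many of these are IDs without a symbol or Gm genes, and the examples given here were chosen after their values were seen. S1pr1, the receptor for leaving lymph nodes, had 24, and Il21, a cytokine gene, had 23. Tcf7, the gene of the T cell factor TCF-1, had 22, Tnfaip3, an inhibitor of NF-kB signalling, had 21, and Rgs1, a regulator of chemokine receptor signalling, had 20. Ubl3, Smarce1 and Irf2bpl had 20 each, and Runx3 had 19. Several of the 32 are neighbours that count the same regions, such as Tcf7 with Skp1 and Vdac1, or Ifng with Ifngas1 (20). The highest value, 211 for Gm26496, belongs to a name whose 2 regions lie 36.4 Mb apart. The counts have no test, and the length of gene-free DNA around each gene was not taken into account.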
